A study of Mus musculus with 10 samples.

Results

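GABA-A receptor subunits were examined in mouse intestinal organoids, miniature epithelia grown in culture, that lacked IκBα (KO) or were wild type (WT). The 7 subunit genes were Gabrp, Gabra2, Gabra3, Gabra5, Gabrb1, Gabrb2 and Gabrd, out of 19505 genes with a named probe set. They were named because Gabrp had the highest KO minus WT change of all genes, with the question whether partner subunits appeared with it. All 7 were measured, each by 1 probe set. The KO minus WT values of these 7 genes are therefore given as a description, with no test.

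Total RNA from 5 KO and 5 WT samples was hybridised to 1 array each. All 10 samples carry the mark P6, which was not interpreted. IκBα, the product of Nfkbia, holds NF-kB factors in the cytoplasm. The sources used here do not say how the gene was deleted, in which cells, or whether samples came from separate animals or cultures. The p-values therefore cover the spread among these arrays alone, and that spread may be technical. In log2 units, Nfkbia had a KO mean of 5.06 ± 0.31 (SD, n = 5) and a WT mean of 9.19 ± 0.38 (SD, n = 5). The Y-linked Eif2s3y, Uty and Kdm5d were lower in all KO than in all WT arrays too, with changes of -5.20, -4.47 and -2.42. The sex-linked difference and the KO label cannot be told apart in any value that follows, the X-linked Gabra3, Gabre and Gabrq included.

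GABA-A receptors are chloride channels of 5 subunits in the Cys-loop family, opened by the transmitter GABA. In the brain most hold α, β and γ or δ subunits, and GABA binds between a β and an α subunit. The π subunit, encoded by Gabrp, is known from epithelia outside the nervous system, such as the uterus, and is thought to need other subunits, β above all, to form a GABA-gated channel. Levels are the authors' RMA values in log2 units, and a change is the KO mean less the WT mean. Levels of different genes come from different probes and are not set against each other.

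Gabrp was high in every KO array and low in every WT array. Its levels were 12.84, 12.39, 12.41, 12.48 and 12.67 in KO replicates 1 to 5, and 4.85, 4.76, 4.94, 4.12 and 4.45 in WT replicates 1 to 5. The lowest KO array thus lay far above the highest WT array, and both groups were tight. The KO mean was 12.56 ± 0.19 (SD, n = 5) and the WT mean 4.62 ± 0.34 (SD, n = 5), a change of 7.94 with a standard error of 0.17, or 245-fold as measured. No detection calls were used here, so 23 background probe sets, recognised by their IDs alone, served as a guide. Their 95th percentile lay between 8.02 and 8.67 in the 10 arrays and their median between 3.86 and 4.30. In all 5 KO arrays Gabrp lay above the 95th percentile, and in none of the WT arrays. Taking that percentile as the lowest level that could be read in WT, Gabrp was at least 16.5-fold higher in KO. With the lower 95th percentile of the 5222 probe sets whose IDs mark them as negative controls, it was at least 35.0-fold higher. Bounds for other genes are taken in the same way, from the background probe sets unless said otherwise. The higher group enters as measured, so a bound is not strict where some of its arrays lay below the percentile.

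The α subunits form the other face of the GABA pocket and set the receptor's drug response and location. Gabra2 stood at 5.24, 5.27, 5.13, 5.02 and 5.01 in KO replicates 1 to 5 and at 4.78, 5.13, 5.18, 5.45 and 5.13 in WT replicates 1 to 5. All KO values of Gabra2 fell inside the WT range. Gabra3, an X-linked gene, stood at 4.21, 4.25, 4.15, 4.21 and 4.48 in KO and at 4.80, 4.39, 4.18, 4.24 and 4.54 in WT. Its groups overlapped too, with WT replicate 1 the highest array. Gabra5, whose product is held mostly outside synapses, stood at 4.77, 4.94, 5.02, 4.97 and 4.92 in KO and at 4.78, 4.63, 4.97, 5.02 and 4.88 in WT. The groups of Gabra5 overlapped, with WT replicate 2 the lowest array. The changes were 0.0014 for Gabra2 (95% interval -0.28 to 0.28), -0.17 for Gabra3 (-0.45 to 0.12) and 0.07 for Gabra5 (-0.16 to 0.30).

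The β subunits carry the other side of the GABA pocket and are needed for receptors to reach the cell surface. Gabrb1 stood at 4.27, 4.50, 4.05, 4.09 and 4.07 in KO replicates 1 to 5 and at 4.41, 4.32, 4.07, 4.55 and 4.35 in WT replicates 1 to 5. Gabrb2 stood at 6.28, 6.11, 6.27, 6.22 and 6.06 in KO and at 6.48, 6.21, 6.05, 6.56 and 6.22 in WT. For both β genes the groups overlapped and the highest array was WT replicate 4. Their changes were -0.14 (95% interval -0.41 to 0.13) and -0.12 (-0.37 to 0.14). The δ subunit, which takes the place of γ in receptors outside synapses, had the smallest SD of the 7 in both groups, 0.08 in KO and 0.11 in WT. Gabrd stood at 5.61, 5.74, 5.55, 5.67 and 5.57 in KO and at 5.68, 5.64, 5.43, 5.48 and 5.67 in WT. Its groups overlapped, with a change of 0.05 (95% interval -0.15 to 0.25).

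**Figure D1:**
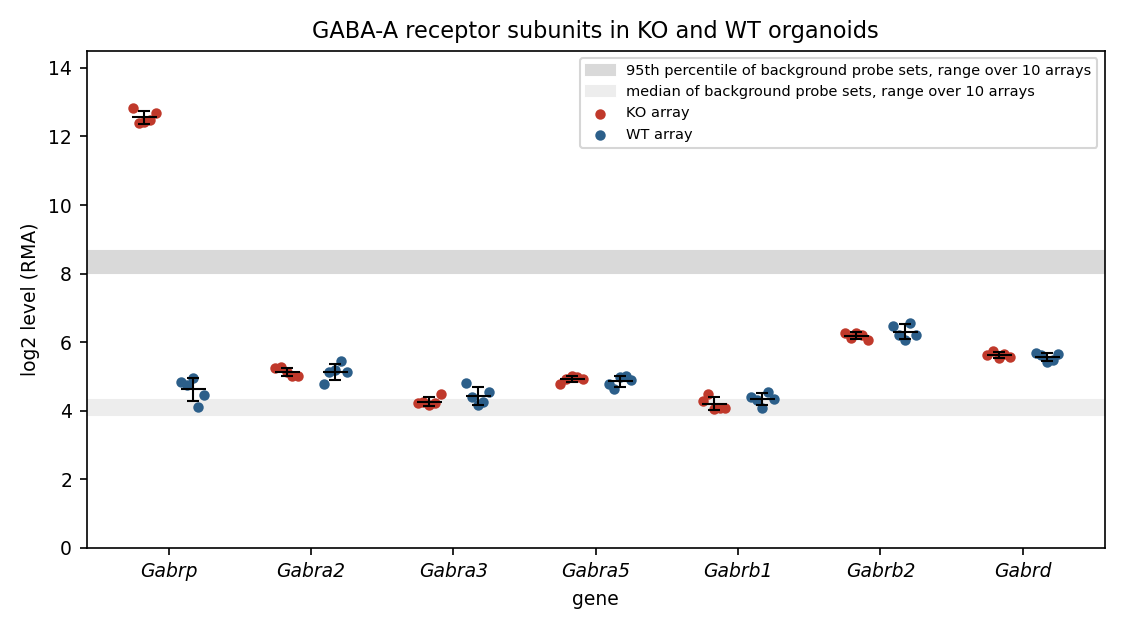
Log2 level of each of the 7 subunit genes in every array (points; KO red, WT blue), with the mean and SD of each group (black) and bands for the range over the 10 arrays of the 95th percentile and the median of the 23 background probe sets. Gabrp stands at 12.39 to 12.84 in KO and at 4.12 to 4.94 in WT, while the groups of the other 6 genes overlap.

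Among the 6 subunits other than Gabrp, changes ranged from -0.17 to 0.07, with 3 above and 3 below 0 and a median of -0.06. The median over all 19572 probe sets with 1 symbol was -0.01. The highest upper bound of the 6 intervals, that of Gabra5, was 0.30 as measured. The largest SD in either group was 0.25. None of the 6 lay above the 95th percentile of the background probe sets in any array, or above that of the negative controls. The intervals thus describe the measured signal, and no fold is given for the 6. KO and WT values did not overlap for 1 of the 7 genes, Gabrp, against 21.4% of all probe sets tested; nothing is read from that count, since the genes were named from this contrast. Background probe sets span a wide range, so a gene below their 95th percentile may still be expressed. The Y-linked Uty, at 7.84 ± 0.50 (SD, n = 5) in WT and 3.38 ± 0.09 (SD, n = 5) in KO, lay below it in all 10 arrays. Uty lay above the 95th percentile of the negative controls in 4 WT arrays, so the example covers the background probe sets only. No sample known to express these subunits was measured, so how their probes respond was not tested.

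A wider look took in subunits outside the 7. Of 12 listed, 9 were measured and 3 were unnamed here and not analysed. 1 rose, 1 fell and 7 did not pass, or 22.2% called against 26.7% of all probe sets (limma, adjusted p under 0.05), 15.0% higher and 11.7% lower. The α subunit Gabra6 rose by 0.36 (standard error 0.10; limma, adjusted p = 0.0197), from 2.98 ± 0.11 (SD, n = 5) in WT to 3.33 ± 0.13 (SD, n = 5) in KO. This call was lost with arrays centred on the 75th percentile (limma, adjusted p = 0.0607) and with a replicate block (limma, adjusted p = 0.0507). The γ subunit Gabrg1 fell by 0.64 (standard error 0.14; limma, adjusted p = 0.00508), from 3.81 ± 0.24 (SD, n = 5) to 3.17 ± 0.20 (SD, n = 5). Gabra6 and Gabrg1 did not overlap between groups, but both lay below the median of the background probe sets in every KO array.

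The 7 that did not pass had changes of -0.31 to 0.14. They were Gabra4 (-0.24), Gabrg3 (0.14), the ε subunit Gabre (-0.31), the θ subunit Gabrq (0.13) and the retinal-type ρ subunits Gabrr1 (-0.19), Gabrr2 (-0.16) and Gabrr3 (-0.01). Gabre spread most, with an SD of 0.51 in KO, where its arrays ran from 5.50 to 6.79. In the 9 genes, too, no array exceeded the 95th percentile of the background probe sets. Over the 15 measured subunits other than Gabrp, the highest upper bound of a change was 0.57 as measured, that of Gabra6. With all 15 below that percentile in every array, this bound describes the measured signal, and no fold is given.

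**Figure D2:**
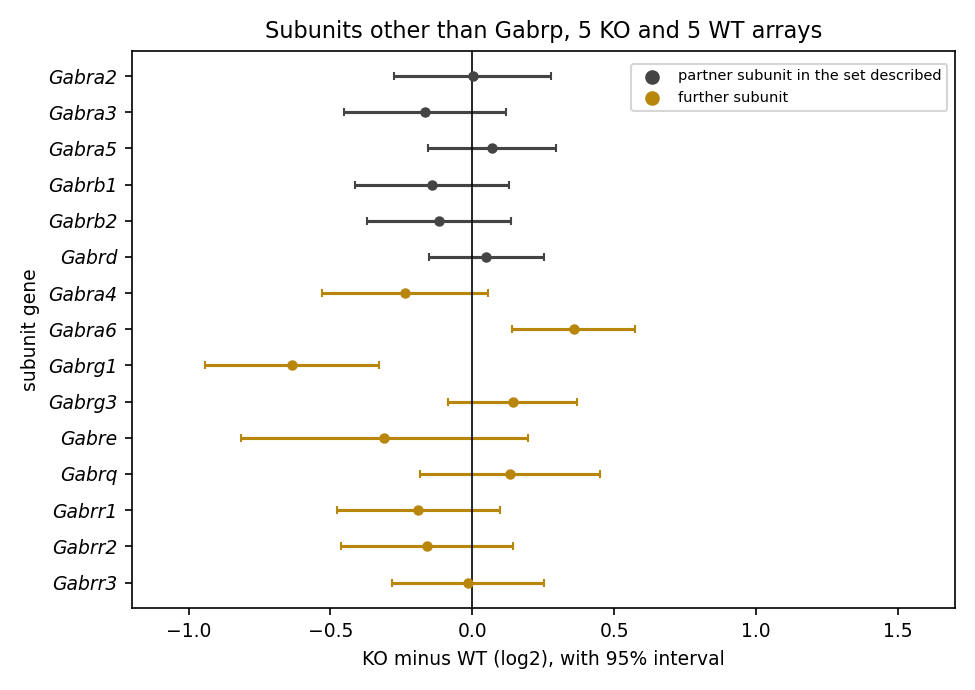
KO minus WT change (log2) of the 15 measured GABA-A subunits other than Gabrp, with 95% intervals from limma over 5 KO and 5 WT arrays; grey marks the 6 partner subunits and gold the 9 further ones. All points lie between -0.64 and 0.36, beside 7.94 for Gabrp, which is not drawn.

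Many subunit genes lie side by side on mouse chromosomes, and Gabrp is not one of these. In the RefSeq gene order (GRCm38.p6, used for order only) Gabrb2 lies next to Gabra6, Gabra2 next to Gabrg1, Gabrb1 next to Gabra4, Gabra5 next to Gabrg3, and Gabra3 next to Gabrq. The protein-coding genes on each side of Gabrp are Ranbp17, a relative of nuclear transport receptors, and Kcnip1, a potassium channel partner. The 3 nearest measured genes on each side were looked at after the values of Gabrp were known, but were picked by position alone. Ranbp17 rose, from 3.27, 3.52, 3.70, 3.58 and 4.02 in WT replicates 1 to 5 to 6.99, 5.70, 6.53, 7.08 and 6.92 in KO replicates 1 to 5. All KO arrays thus lay above all WT arrays, by a measured mean of 3.03 with a standard error of 0.25 (limma, adjusted p = 2.77e-06). All 10 arrays lay below the 95th percentile of the background probe sets and below that of the negative controls, so no fold is given for Ranbp17. The other 5 did not pass. These were the homeobox gene Tlx3 (-0.18), the nucleolar Npm1 (0.17), Kcnip1 (0.01), the channel subunit Kcnmb1 (0.04) and the signalling adaptor Lcp2 (0.28; limma, adjusted p = 0.0592). Lcp2 passed with cyclic loess (limma, adjusted p = 0.0486) and with control probe sets left out (limma, adjusted p = 0.0498).

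Likeness to the pattern of Gabrp was taken as the root mean square difference over the 10 arrays between log2 levels centred on each gene's mean. The measure follows the size of the step between groups, so genes with a step of near the same size come first. The closest were Cp, a copper-carrying ferroxidase (0.35), the chemokine Cxcl5 (0.42), the iron-withholding Lcn2 (0.48), the membrane mucin Muc1 (0.64) and the RNA-binding protein Bicc1 (0.70). The 6 partner subunits lay at 3.95 to 4.06, around the 3.98 that a gene with the same level in all arrays would have, and nothing further is read from that.

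**Figure D3:**
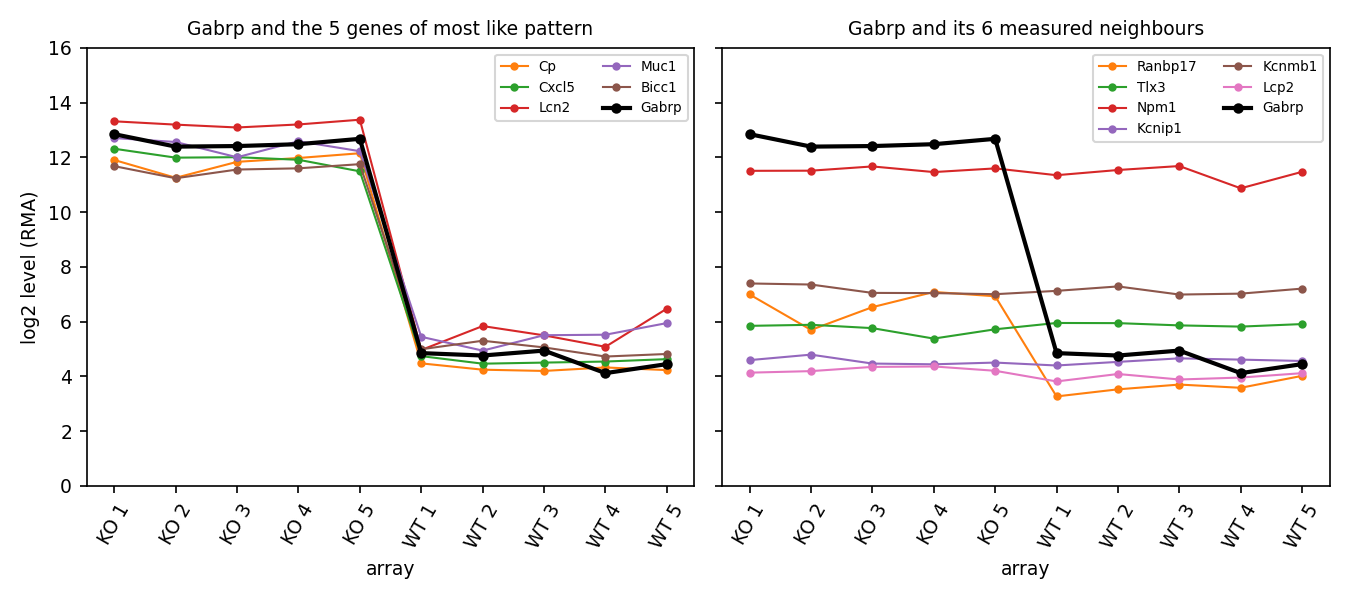
Log2 level in each of the 10 arrays of Gabrp (black) with the 5 genes of most like pattern (left) and with its 6 nearest measured neighbours on the chromosome (right). On the left all 6 lines step down between KO and WT; on the right Ranbp17 steps by 3.03 and Gabrp by 7.94.

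The sequence before the start of Gabrp is shown beside those of a gene of like pattern and of a β subunit whose groups overlapped. Each line holds the 250 bases before the annotated start, 5′ to 3′ on the gene's strand, from RefSeq (GRCm38.p6). The windows are chr11:33578958-33579207 on the minus strand for Gabrp, chr3:89228806-89229055 on the plus strand for Muc1, and chr11:42420190-42420439 on the plus strand for the first of 3 starts of Gabrb2. Capitals mark TATAAA and GGAATG.
Gabrp: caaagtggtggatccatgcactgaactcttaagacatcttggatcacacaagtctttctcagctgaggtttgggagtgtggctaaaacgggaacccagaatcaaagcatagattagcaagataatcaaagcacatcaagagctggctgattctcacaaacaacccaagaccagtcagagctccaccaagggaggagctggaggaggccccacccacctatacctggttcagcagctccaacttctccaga
Muc1: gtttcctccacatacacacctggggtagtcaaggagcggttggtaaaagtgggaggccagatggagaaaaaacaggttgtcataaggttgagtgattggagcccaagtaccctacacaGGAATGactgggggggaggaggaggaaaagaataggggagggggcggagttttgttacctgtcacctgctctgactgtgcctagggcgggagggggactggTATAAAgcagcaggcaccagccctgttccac
Gabrb2: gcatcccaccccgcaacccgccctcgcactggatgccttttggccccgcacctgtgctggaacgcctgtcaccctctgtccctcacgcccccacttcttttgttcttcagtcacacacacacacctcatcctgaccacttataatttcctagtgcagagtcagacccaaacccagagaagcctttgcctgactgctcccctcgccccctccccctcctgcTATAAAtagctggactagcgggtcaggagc

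4 motifs were searched on both strands, the NF-kB motif by its 10-base consensus, the AP-1 motif TGANTCA, the TEAD motif GGAATG and the TATA motif TATAAA. None of the 4 was found in the Gabrp window, which therefore has no capitals. Muc1 held GGAATG and TATAAA, and the first Gabrb2 window TATAAA, 30 to 25 bases before the start. Of the 6 subunits with a window, 10 windows in all, the NF-kB and AP-1 motifs were found in 0, GGAATG in 2 (Gabra3 and Gabrb2) and TATAAA in 2 (the same genes). By window, GGAATG was in 2 of 10 and TATAAA in 3 of 10. The 2 windows of Gabra3 overlap and share the same TATAAA site. Of 32841 windows of this length, 3.90% held the NF-kB motif, 6.75% AP-1, 12.6% GGAATG and 12.4% TATAAA. The motifs can overlap each other in part, and these counts say only whether the letters occur in 250 bases.

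Genes that make and break down GABA were lower in KO or did not pass. Of 8 measured, 5 fell, 0 rose (limma, 0 also at an unadjusted p under 0.05) and 3 did not pass. That is 62.5% called, against 26.7% of all probe sets, of which 11.7% were lower and 15.0% higher. The list was written with earlier results of these data known, so the share is a description and not a test. The median change was -1.35 against -0.01 over all probe sets. Abat, the transaminase that starts GABA breakdown, stood at 6.46, 6.57, 6.32, 6.44 and 6.59 in KO replicates 1 to 5 and at 7.24, 9.35, 8.25, 9.63 and 8.78 in WT replicates 1 to 5. Every KO array lay below every WT array, and the WT arrays were widely spread. Abat fell by 2.17 as measured (standard error 0.37; limma, adjusted p = 0.000857). Its KO arrays all lay below the 95th percentile of the background probe sets, and 3 of 5 WT arrays lay above it. The bound of 1.34-fold takes the WT levels as measured, so it is not strict. Aldh5a1, which finishes the breakdown to succinate, fell by 0.73 as measured (limma, adjusted p = 0.000495). It lay above that percentile in 0 KO arrays and 1 WT array, so no fold is given for Aldh5a1. Akr7a5, which reduces the same aldehyde, fell by 1.28 (limma, adjusted p = 1.00e-05).

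Of the route from putrescine to GABA, Aldh9a1 fell by 1.42 (limma, adjusted p = 0.000111). Aoc1, the diamine oxidase, which the naming rule did not take in, fell by 2.49 (limma, adjusted p = 0.00189). It lay above the 95th percentile of the background probe sets in 0 KO and 4 WT arrays. With WT levels as measured, its bound was 3.02-fold. Maob changed by -1.57 with a standard error of 0.60 and did not pass (limma, adjusted p = 0.0773); its WT arrays ran from 4.73 to 8.42. The glutamate decarboxylases Gad1 and Gad2, which make GABA in neurons, did not pass either, with changes of 0.03 (95% interval -0.20 to 0.27) and 0.01 (-0.28 to 0.29). Both stayed below the 95th percentile of the background probe sets in all 10 arrays. Maob, Gad1 and Gad2 were named after their values were seen.

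Of 6 measured transporters that carry GABA, 1 rose, 0 fell (limma, 1 at an unadjusted p under 0.05) and 5 did not pass. That is 16.7% called, against 26.7% of all probe sets, with a median of -0.0001. Slc6a6, mainly a taurine transporter, rose by 0.53 (limma, adjusted p = 0.0368), from 10.74 ± 0.28 (SD, n = 5) to 11.27 ± 0.28 (SD, n = 5), with overlap between groups. This call was lost on leaving out KO replicate 1, 3, 4 or 5, or WT replicate 1, 3 or 5, where limma gave an adjusted p of 0.0520 to 0.0900. It was also lost with cyclic loess, with centring on the 75th percentile and with a replicate block (limma, adjusted p = 0.0578, 0.0527 and 0.0548). Of 5 measured GABA-B receptor genes 0 rose (limma, 1 at an unadjusted p under 0.05), 1 fell and 4 did not pass. That is 20% called, against the same 26.7%, with a median of -0.11. The auxiliary subunit Kctd16, below the 95th percentile of the background probe sets in all 10 arrays, fell by 0.49 (limma, adjusted p = 0.0202), a call lost on leaving out KO replicate 4, KO replicate 5 or WT replicate 2, where limma gave an adjusted p of 0.0535 to 0.0538. Without KO replicate 3, 1 gene of the list was higher.

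Of 18 measured genes whose proteins assemble, carry or anchor GABA-A receptors, 4 rose, 2 fell and 12 did not pass. That is 33.3% called against 26.7% of all probe sets, with a median of 0.09. Rdx, which links membrane proteins to actin and anchors α5 receptors in neurons, stood at 9.99, 9.81, 10.17, 9.65 and 9.82 in KO replicates 1 to 5 and at 3.88, 3.59, 3.47, 3.45 and 3.28 in WT replicates 1 to 5. It was high in each KO array and low in each WT array, a measured change of 6.35 with a standard error of 0.14 (limma, adjusted p = 3.34e-11). All WT arrays lay below the 95th percentile of the background probe sets, against which Rdx was at least 2.59-fold higher in KO. Gabarapl1, a relative of the receptor-binding autophagy protein GABARAP, rose by 1.18 (limma, adjusted p = 0.00304). Gphn, the scaffold gephyrin, fell by 0.67 (limma, adjusted p = 0.00326) and Plcl2, an inactive relative of phospholipase C, fell by 1.50 (limma, adjusted p = 0.000168). Gphn and Plcl2 lay below the 95th percentile of the background probe sets in all 10 arrays. The 2 other genes that rose, outside the naming rule, were the inhibitory synapse adhesion protein Nlgn2 (1.96; limma, adjusted p = 0.00348) and Hap1 (0.63; limma, adjusted p = 0.0192). In both, KO and WT arrays overlapped, and the WT arrays all lay below that percentile. The call of Hap1 was lost with a replicate block (limma, adjusted p = 0.0513).

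Chloride transport sets whether GABA-gated current flows in or out. Of 11 measured genes 2 rose, 2 fell and 7 did not pass, or 36.4% called against 26.7% of all probe sets. The median change was -0.21. Ano1, a calcium-activated chloride channel, stood at 11.70, 11.64, 11.92, 11.57 and 11.42 in KO replicates 1 to 5 and at 7.57, 7.35, 7.03, 6.96 and 7.99 in WT replicates 1 to 5. The group means lay 4.27 apart as measured, with a standard error of 0.19 (limma, adjusted p = 1.22e-08). With all WT arrays below the 95th percentile of the background probe sets, Ano1 was at least 8.78-fold higher in KO. The potassium-chloride cotransporter Slc12a4 rose by 1.82 (limma, adjusted p = 0.00129) but lay below that percentile in all 10 arrays. Its relative Slc12a7 fell by 1.03 (limma, adjusted p = 0.00299), with 0 KO and 3 WT arrays above that percentile. With WT levels as measured, its bound was 1.39-fold. Cftr, the apical chloride channel of the gut, fell by 1.98 as measured (limma, adjusted p = 0.000332). It lay above that percentile in 3 KO and 5 WT arrays. 4 genes of the list fell with array weights or with a replicate block, and 5 fell without WT replicate 3.

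**Figure D4:**
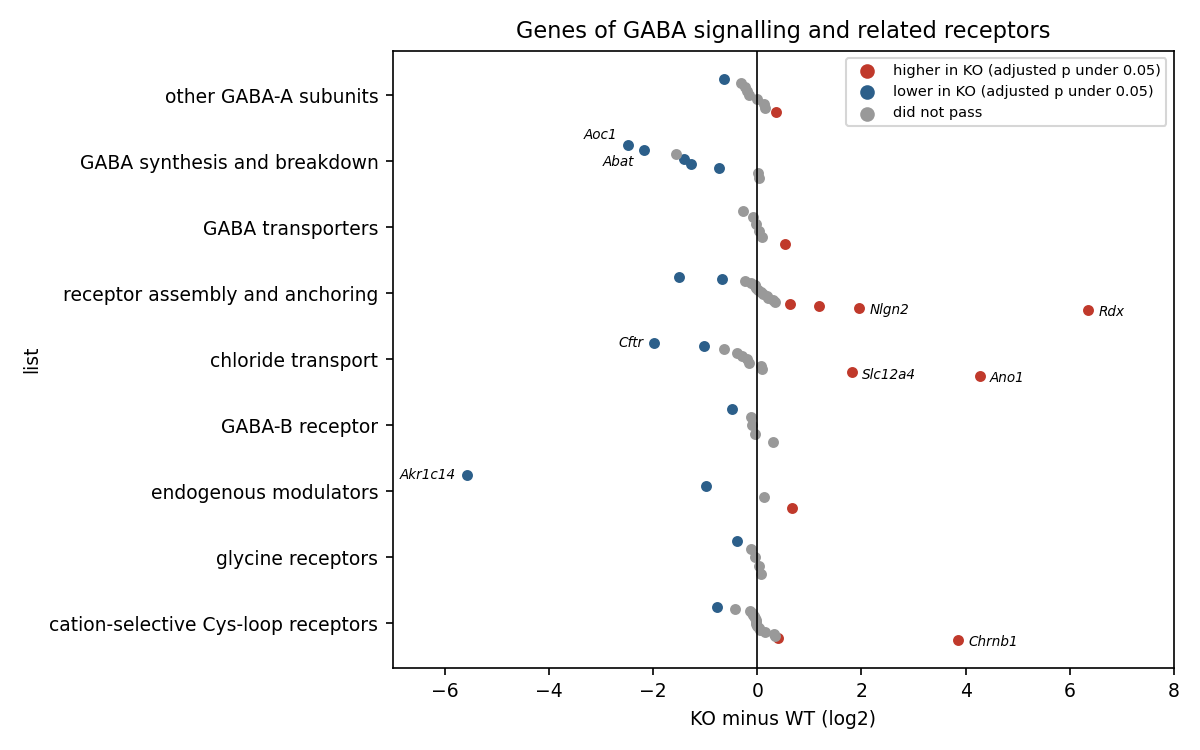
KO minus WT change (log2) of each measured gene in 9 lists (rows), coloured by its limma call over 5 KO and 5 WT arrays; called genes with a change over about 1.7 in size are named. Measured changes are drawn, also where 1 group or both lay below the background probe sets, as for Rdx (6.35), Ano1 (4.27), Chrnb1 (3.86) and Akr1c14 (-5.58); in the subunit row all points are between -0.64 and 0.36.

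Among genes that modulate the receptor, 4 were measured, of which 1 rose, 2 fell and 1 did not pass. That is 75% called, against 26.7% of all probe sets, and with 4 genes nothing is read from the difference. Akr1c14, which makes the receptor-active steroid allopregnanolone, fell by 5.58 as measured (standard error 0.28; limma, adjusted p = 4.31e-08), from 10.20 ± 0.53 (SD, n = 5) in WT to 4.61 ± 0.50 (SD, n = 5) in KO. All KO arrays lay below the 95th percentile of the background probe sets, against which it was at least 3.93-fold lower in KO. Dbi, a lipid-binding protein that also acts at the benzodiazepine site, fell by 0.99 (limma, adjusted p = 0.000127). Tspo, the mitochondrial protein that binds Dbi, rose by 0.67 (limma, adjusted p = 0.00902).

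Related Cys-loop receptors were called in 20% and 16.7% of 2 lists, against 26.7% of all probe sets, and nothing is read from the difference. Of 5 measured glycine receptor subunits, the other chloride-conducting branch, 0 rose (limma, 0 also at an unadjusted p under 0.05), 1 fell and 4 did not pass, with a median of -0.04. Glra1 fell by 0.39 (limma, adjusted p = 0.0411). That call was lost with cyclic loess (limma, adjusted p = 0.0502), with a replicate block (limma, adjusted p = 0.0834) and on leaving out KO replicate 1, 4 or 5, or WT replicate 1, 2, 4 or 5, where limma gave an adjusted p of 0.0675 to 0.0993. Of 18 measured nicotinic and serotonin receptor subunits 2 rose, 1 fell and 15 did not pass, with a median of -0.03. Chrnb1, the β subunit of the muscle acetylcholine receptor, stood at 9.27, 8.84, 9.13, 8.97 and 10.05 in KO replicates 1 to 5 and at 5.25, 5.01, 5.81, 4.96 and 5.93 in WT replicates 1 to 5. The groups of Chrnb1 did not overlap, with a measured change of 3.86 with a standard error of 0.26 (limma, adjusted p = 4.82e-07). All WT arrays lay below the 95th percentile of the background probe sets, against which Chrnb1 was at least 1.66-fold higher in KO. Its muscle partners were singled out after their values were seen and did not pass, with changes of 0.31 for Chrna1, -0.01 for Chrnd, -0.07 for Chrne and -0.03 for Chrng. The neuronal subunit Chrnb2 fell by 0.77 (limma, adjusted p = 0.00149). Chrna4 rose by 0.40 (limma, adjusted p = 0.0223), a call lost with centring on the 75th percentile (limma, adjusted p = 0.0552). It was also lost on leaving out KO replicate 4, KO replicate 5, WT replicate 3 or WT replicate 5, where limma gave an adjusted p of 0.0518 to 0.0597. Glra1, Chrnb2 and Chrna4 lay below the 95th percentile of the background probe sets in all 10 arrays.

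Over the 9 lists together, 84 genes were measured, of which 11 rose, 15 fell and 58 did not pass. That is 31.0% called, against 26.7% of all probe sets.

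The arrays were alike in scale, with medians of 6.03 to 6.23. Of the epithelial markers 3 rose (Cdh1, 0.45, Krt8, 0.43, and Krt18, 1.43), 2 fell (Vil1, -1.03, and Cdx2, -2.16) and 3 did not pass. The list mean per array was 10.49 to 11.11 in KO and 10.87 to 11.16 in WT. Krt20 lay above the 95th percentile of the background probe sets in 1 KO and 3 WT arrays, and Cdx2 in 3 KO and 5 WT arrays. The rest lay above it in all 10 arrays. Of 10 measured enteric neuron markers 1 rose (Ret, 0.90), 1 fell (Snap25, -0.79) and 8 did not pass, and 9 lay below the 95th percentile of the background probe sets in all arrays; the list mean was 5.29 to 5.55 in KO and 5.27 to 5.51 in WT. Of 4 measured enteroendocrine markers all 4 fell, against 11.7% of all probe sets. The list mean was 4.73 to 5.17 in KO and 7.51 to 8.12 in WT. Among them Scg2 and Syp lay below that percentile in all 10 arrays. Of 4 glial markers 1 rose (S100b, 0.46), and of 4 immune markers 1 rose (Itgam, 1.56) and 1 fell (Lyz2, -4.18). S100b lay below that percentile in all 10 arrays, and Itgam above it in 1 KO array only. Of 9 fibroblast and muscle and 5 endothelial markers 0 were called (limma; 2 and 1 at an unadjusted p under 0.05). The part of these markers in the results was not tested, and in bulk RNA fewer cells of a type and less RNA per cell cannot be told apart.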

How the data were processed

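Total RNA of 5 KO and 5 WT organoid samples was measured on 1 array each. Each probe set has 1 log2 value per array, as deposited by the authors. RMA and limma are named, per the submitters' processing notes, while their versions and the genome build were not given in the sources used here. Of 28846 probe sets 6640 were controls, 19572 had 1 gene symbol, 0 several and 2634 are unnamed here. The number of arrays limits precision.

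The deposited log2 levels were fitted with limma (3.58.1, R 4.3.3) on all probe sets, KO against WT with no covariate, with Benjamini-Hochberg adjustment over the 19572 and a threshold of 0.05. Where a gene had several probe sets, that with the highest mean over the 10 arrays was used. The members and lists were chosen with earlier results of these data known; members get no test. Named were the members, the further subunits, Nfkbia, the Y-linked genes, the 5 genes most like Gabrp (predicted genes and olfactory and vomeronasal receptors left out), and per list up to 4 called genes of smallest p. The lists held subunits, GABA synthesis, transport, anchoring, chloride transport, GABA-B, modulators, other Cys-loop receptors, and markers of 7 cell types. All 7 members matched a RefSeq gene; 6 had a promoter window.

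Alternatives changed normalization, centring, filter, variance model, weights, replicate block, arrays, adjustment or probe set. On simulated data with 200 of 19572 genes changed, the fit recovered 24% of KO against WT changes of 0.5, 86% of 1, 96% of 2 and 100% of 4, with 7 false calls among 160. Far more, 26.7% of probe sets, were called in the data, so these rates hold for the simulated setting only. Tables used pandas 2.3.3 and numpy 2.4.6 under Python 3.11.15, and figures matplotlib 3.10.9.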

Additional observations from a re-analysis of the deposited data

Results flagged for a closer look

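4 of 98 groups of 5 arrays had 1 array far from the other 4, the gap taking more of the group's range than Dixon's limit of 0.71. The groups are those of the genes named by rule or position, with the Y-linked genes left out. Chance gives about 1 in 20. Gabra6 was lowest in WT replicate 3, at 2.78 against 2.99 to 3.05 in the other WT arrays. Gabrq was highest in WT replicate 1, at 4.57 against 4.07 to 4.19. Gabrr2 was lowest in KO replicate 5, at 4.96 against 5.35 to 5.49. Nfkbia was highest in WT replicate 5, at 9.85 against 8.95 to 9.19. No group of the 7 subunits described in full was among these. Of the Y-linked genes, not counted here, Kdm5d was lowest in WT replicate 4, at 4.92 against 6.26 to 6.66. That gap passes the same limit.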

How the results depend on the processing

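The change of Gabrp ranged from 7.91 to 7.94 over the alternatives with all arrays and from 7.81 to 8.02 with 1 array left out, and those of the 6 partner subunits moved by less than the SD between arrays. Over all probe sets 2678 to 3395 genes were called higher in KO and 2135 to 2858 lower, and with 1 array left out 2475 to 2935 and 1855 to 2310. Counts in lists of a few genes moved more. Of the further subunits called higher, 0 were left with centring on the 75th percentile or a replicate block, and 0 higher and 0 lower with the dimmest 25% of probe sets left out, since Gabra6 and Gabrg1 were then not tested. Of GABA transporters called higher, 0 were left with cyclic loess, with centring or with a replicate block. Of chloride transport genes, 4 were lower with array weights or a replicate block. Of GABA-B receptor genes, 1 was higher with array weights. Of glycine receptors called lower, 0 were left with cyclic loess, with a replicate block, or with the dimmest probe sets left out, when none of the 5 was tested. Of nicotinic and serotonin receptor subunits, 1 was higher with centring and 2 were lower with array weights. The cause of the other moves was not tested. With 1 array left out, counts ran from 0 to 1 for transporters higher, 2 to 5 for chloride transport lower, 0 to 1 for GABA-B genes higher and also lower, 0 to 1 for glycine receptors lower and 1 to 3 for nicotinic and serotonin subunits higher. Of the 7 members, 5 lay above the median of the background probe sets in all KO arrays and 5 in all WT arrays, where 1 and 0 lay above the 95th percentile. The labels number replicates 1 to 5 in both groups, but same-numbered arrays did not deviate together: the correlation of their deviations ran from -0.07 to 0.36 and 2 of 5 KO arrays matched their own number best. With the replicate block as a pairing, 2739 genes were higher and 2174 lower. Leaving out the control probe sets, and taking negative controls in place of background probe sets for detection and bounds, were alternatives chosen after seeing the data. With negative controls the bounds were 5.49-fold for Rdx, 3.53-fold for Chrnb1 and 6.76-fold for Akr1c14, and 2.31-fold for Abat, while Ano1 was above them in some WT arrays. Abat lay above them in 4 WT arrays, so its bound is not strict.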
